A study of Homo sapiens with 6 samples.

Results

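The chondroitin and dermatan sulfotransferases and the epimerase DSE were chosen by name, as 9 genes, and every probe set whose RefSeq transcript belonged to one of them was taken. There were 8 such probe sets, 1 for each of 8 genes (CHST11, CHST12, CHST13, CHST14, CHST3, CHST7, CHST15 and UST), out of 1259 probe sets in all, of which 1043 were named and stood for 927 genes. No probe set was matched to DSE, and its values were not analysed here. The values came from 6 arrays of total RNA from HCT-15, a long-established line of human colon cancer cells, 3 of cells treated with 5-aza-2'-deoxycytidine and 3 of untreated cells. The drug, also called decitabine, enters DNA in place of deoxycytidine and traps DNA methyltransferases, so that methylation is lost as cells divide. The submitters asked how genes of glycan synthesis change in treated cells. The sources used here give neither dose nor duration, and all arrays share the 1 cell line. Separate cultures are not stated for the replicates, so the p-values measure the spread between these arrays, which may be technical.

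Chondroitin sulfate is a chain of alternating glucuronic acid and N-acetylgalactosamine (GalNAc) that is built on proteoglycan core proteins in the Golgi. In dermatan sulfate some of the glucuronic acid has been turned into iduronic acid by the epimerases DSE and DSEL. Sulfate is then added at fixed places, on the 4-O or the 6-O of GalNAc, on both, or on the 2-O of the uronic acid, each by its own enzymes. The pattern of sulfation sets which growth factors, chemokines and matrix proteins the chain binds, and altered chondroitin sulfate is well known in colon and other tumours.

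Array medians lay between 5.81 and 5.92 on the deposited log2 scale. Pairs of treated arrays correlated at 0.9974 to 0.9987, pairs of untreated arrays at 0.9978 to 0.9982 and pairs across the groups at 0.9817 to 0.9844. Untreated replicate 3 is named as treated in its title, against its treatment entry, its source name and the letter that starts the title, and was kept with the untreated arrays. Of the marker genes listed for colon epithelium 4 of 14 were on the array, and MUC13 (8.93 in treated and 7.97 in untreated cells), MUC1 (8.50 in treated and 7.20 in untreated cells) and LGALS4 (9.03 in treated and 9.54 in untreated cells) lay well above the array medians, while MUC2 (5.67 in treated and 5.57 in untreated cells) lay below them. The summed linear level of these 4 epithelial markers was 1378 to 1530 in treated and 1160 to 1216 in untreated arrays. That of 4 of 10 leukocyte markers was 134 to 147 in treated and 120 to 124 in untreated arrays, and that of 5 of 10 stromal and endothelial markers 80.5 to 90.2 in treated and 82.6 to 99.3 in untreated arrays. Of the stromal and endothelial markers DCN (2.75 in treated and 2.76 in untreated cells), LUM (2.58 in treated and 2.43 in untreated cells) and SELE (2.87 in treated and 2.97 in untreated cells) were among the lowest values of the table. PDGFRB was at 4.74 in treated and 5.22 in untreated cells and fell, and PECAM1 was at 5.27 in treated and 4.98 in untreated cells and rose (adjusted p = 0.00186 and 0.0403). Among leukocyte markers CD33 (6.15 in treated and 5.58 in untreated cells) rose and CD22 (5.13 in treated and 5.38 in untreated cells) fell (adjusted p = 0.000168 and 0.013). The part of these shifts in the results was not tested.

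Treated cells had more CHST15 and CHST11 RNA and less UST RNA, while the other 5 sulfotransferases did not pass the test. CHST15, which makes the 4,6-disulfated GalNAc of chondroitin sulfate E, was 9.66-fold higher in treated cells, and CHST11, a chondroitin 4-O-sulfotransferase, was 3.62-fold higher. UST, the uronyl 2-O-sulfotransferase, was 1.88-fold lower. The changes of both 6-O-sulfotransferases, CHST3 and CHST7, and of the 3 other 4-O-sulfotransferases lay between 0.04 and 0.21 on the log2 scale. By limma's test with Benjamini-Hochberg adjustment over all 1259 probe sets, 2 of the 8 rose and 1 fell at an adjusted p under 0.05. The background was high, since 34.8% of all probe sets passed that test, 18% upward and 16.8% downward, so a share of 3 in 8 is near that of the whole table. Centring the array medians moved the split over all probe sets to 197 rises and 311 falls, against 227 rises and 211 falls in the deposited values. The median log2 change was 0.15 over the 8 and -0.01 over all probe sets. At 2-fold or more 42 probe sets rose, 3.34% of the table, and CHST15 and CHST11 were among them. The treated and untreated values did not overlap for 5 of the 8 genes, higher in treated cells for 4 and lower for 1, while over all probe sets this held for 46.1%, with 22.7% higher and 23.4% lower. In order of the size of rise CHST15 was number 2 and CHST11 number 16 of the 1259, and UST was number 22 in order of the size of fall.

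**Figure D1:**
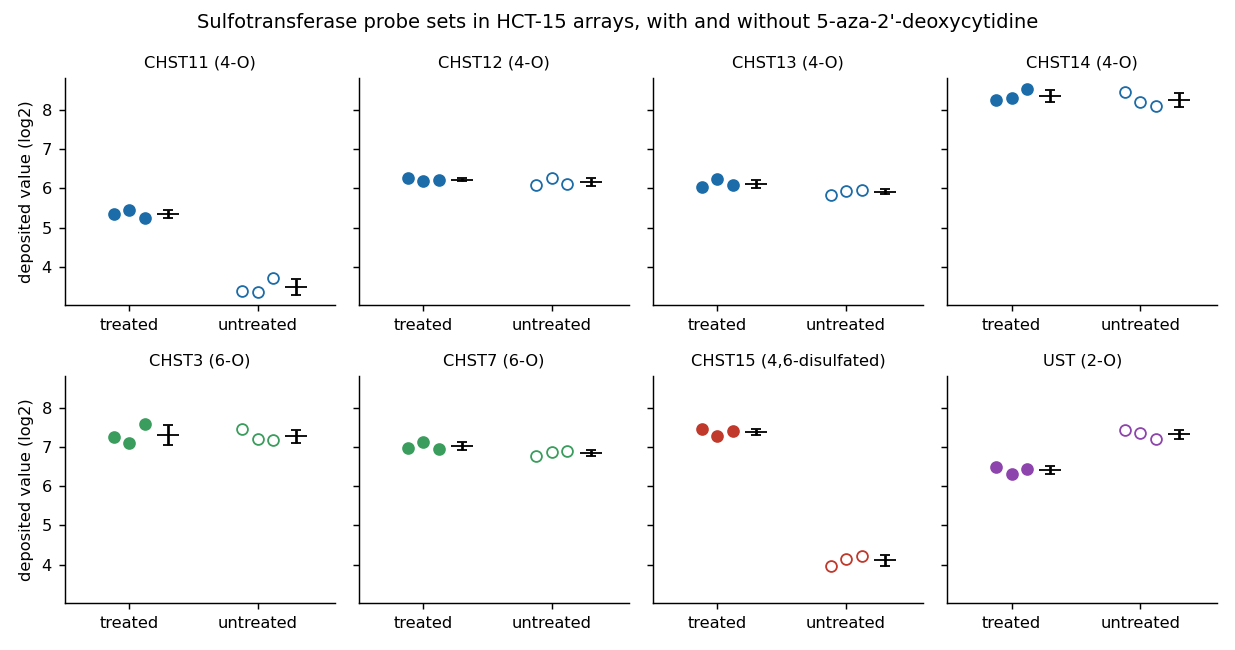
Deposited log2 values of the 8 sulfotransferase probe sets in each array, with filled circles for treated and open circles for untreated arrays, and the mean ± SD of each group (n = 3) beside them. The groups are far apart for CHST11, CHST15 and UST, and close together or overlapping for the other 5.

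The stretches before the transcription starts of the 3 genes that moved are shown because the drug acts on the methylation of CpG dinucleotides. Each sequence is the 250 bases before the start in RefSeq on GRCh38.p14, 5′ to 3′ on the gene's strand, with every CG in capitals. The CG motif reads the same on both strands. That of CHST15 lies at chr10:124093599-124093848 on the minus strand, that of CHST11 at chr12:104456698-104456947 on the plus strand and that of UST at chr6:148746780-148747029 on the plus strand. No build is stated for the array itself.
CHST15: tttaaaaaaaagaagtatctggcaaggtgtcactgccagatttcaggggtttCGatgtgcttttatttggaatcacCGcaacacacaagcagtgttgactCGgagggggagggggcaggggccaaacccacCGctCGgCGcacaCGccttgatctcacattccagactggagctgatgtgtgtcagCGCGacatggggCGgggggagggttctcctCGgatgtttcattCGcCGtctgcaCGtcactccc
CHST11: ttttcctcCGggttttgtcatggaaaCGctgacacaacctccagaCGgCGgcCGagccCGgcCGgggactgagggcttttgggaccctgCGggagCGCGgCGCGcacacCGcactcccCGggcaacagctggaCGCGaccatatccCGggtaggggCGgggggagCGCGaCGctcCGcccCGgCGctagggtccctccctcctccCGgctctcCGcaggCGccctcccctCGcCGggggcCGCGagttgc
UST: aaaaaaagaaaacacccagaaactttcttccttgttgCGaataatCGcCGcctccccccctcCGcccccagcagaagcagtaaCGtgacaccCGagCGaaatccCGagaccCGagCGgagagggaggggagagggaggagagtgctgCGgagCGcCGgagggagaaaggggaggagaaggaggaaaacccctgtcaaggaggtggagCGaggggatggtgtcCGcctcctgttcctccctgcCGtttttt

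CHST15 had 14 CpGs in this stretch, and 44.8% of all 35116 RefSeq promoters of the same length had at least as many. CHST11 had 31 CpGs, a number reached by 10.8% of promoters, and UST had 16, reached by 41%. The 2 genes that rose thus differed in CpG count, and UST, which fell, had nearly the count of CHST15. CHST12 had 37 CpGs and was not called, CHST14 had 21, CHST7 had 17 and CHST13 had 15. CHST3 has 3 starts in RefSeq, with 21, 39 and 13 CpGs. Among the 727 named genes of the array with a RefSeq promoter, each taken at its start with the most CpGs, the median was 24 CpGs for the 141 that rose, 23.5 for the 130 that fell and 18 for the 456 not called. Over all 727 the median was 20, with quartiles of 7 and 28, and CHST15 and UST lay below this median. Over all 35116 promoters, with every start counted, the median was 11. The 26 genes that rose at least 2-fold had a median of 16 CpGs with quartiles of 4.5 and 28.5, so that CHST15 lay near this median and CHST11 above the upper quartile. The 11 genes that fell at least 2-fold had the same median of 16, with quartiles of 5 and 20.5. CpG counts describe the sequence, and methylation itself was not measured.

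**Figure D2:**
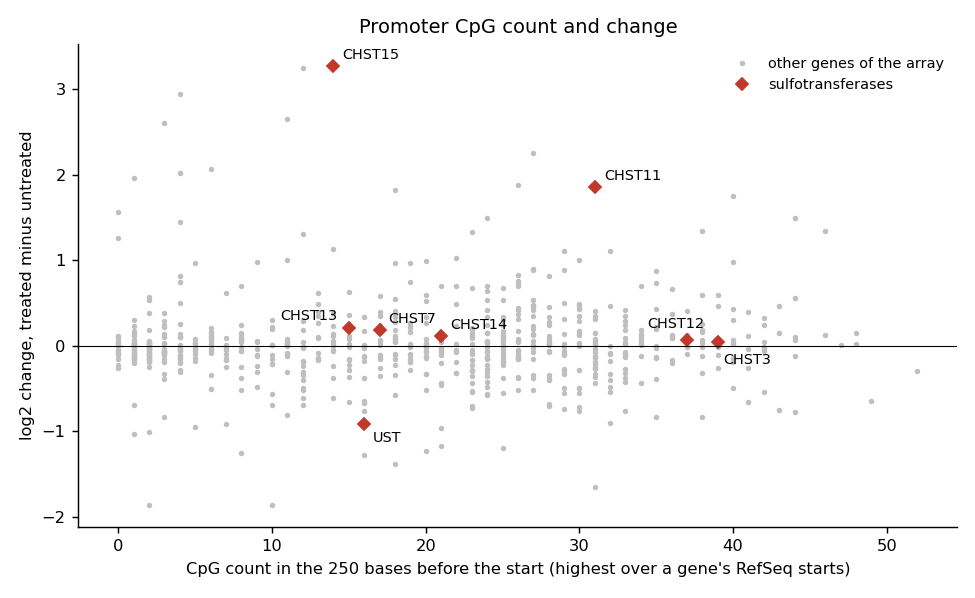
CpG count in the 250 bases before the start (x axis, highest over a gene's RefSeq starts) against the log2 change, treated minus untreated (y axis), for the 727 array genes with a promoter, the 8 sulfotransferases as red diamonds. CHST15 with 14 CpGs lies at the top of the plot and UST with 16 CpGs below 0, while CHST12 with 37 lies near 0.

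CHST15 adds a sulfate to the 6-O of GalNAc that already carries one on the 4-O, and thus acts after the 4-O-sulfotransferases. Its probe set was at 7.46, 7.29 and 7.40 in treated replicates 1 to 3, against 3.96, 4.14 and 4.23 in untreated replicates 1 to 3. All treated values lay far above all untreated ones, and the spread within either group was small beside the gap. The means were 7.38 ± 0.09 in treated and 4.11 ± 0.14 in untreated cells (SD, n = 3 each). The log2 change was 3.27 ± 0.09 (SE, limma), with a 95% interval of 3.08 to 3.46 and an adjusted p of 2.77e-09. Without untreated replicate 3 the change was 3.33. In untreated cells the CHST15 values lay below 4.90, the mean level that one alternative required of a probe set. That level is no estimate of background. Since no detection calls were used, a background level cannot be told from a low level of RNA there.

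Sulfation of the 4-O of GalNAc is a common modification of chondroitin sulfate, and CHST11, CHST12 and CHST13 place it on chondroitin while CHST14 places it on GalNAc beside iduronic acid in dermatan sulfate. CHST11 was at 5.35, 5.45 and 5.23 in treated cells, against 3.38, 3.36 and 3.72 in untreated cells. The groups were separate, and untreated replicate 3 was the highest of its group but still below the lowest treated value. The log2 change was 1.86 ± 0.10 (SE), with a 95% interval of 1.63 to 2.09 and an adjusted p of 3.04e-07, and it was 1.97 without untreated replicate 3. The probe set's name ends in s_at, which marks it as able to bind more than 1 transcript, and its mean over the arrays, 4.41, was also below 4.90.

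The other 3 enzymes of 4-O-sulfation stayed within a narrow range. CHST12 was at 6.26, 6.19 and 6.21 in treated cells, against 6.08, 6.27 and 6.12 in untreated cells, with a log2 change of 0.06 (95% interval -0.10 to 0.23, adjusted p = 0.571). Its untreated values spanned all of the treated ones. CHST13 was at 6.05, 6.24 and 6.09 in treated cells, against 5.84, 5.94 and 5.96 in untreated cells. Here the groups did not overlap, but the log2 change of 0.21 (95% interval 0.04 to 0.38) had an adjusted p of 0.0595. It passed the threshold with array weights (0.042), and over the alternatives its adjusted p ranged up to 0.209. CHST14, the dermatan 4-O-sulfotransferase, was at 8.25, 8.30 and 8.54 in treated cells, against 8.45, 8.22 and 8.09 in untreated cells. The groups overlapped, and the log2 change was 0.11 (95% interval -0.12 to 0.35, adjusted p = 0.485). The upper bounds of these 3 intervals, at most 0.38, lay below the lower bound for CHST11, 1.63.

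**Figure D3:**
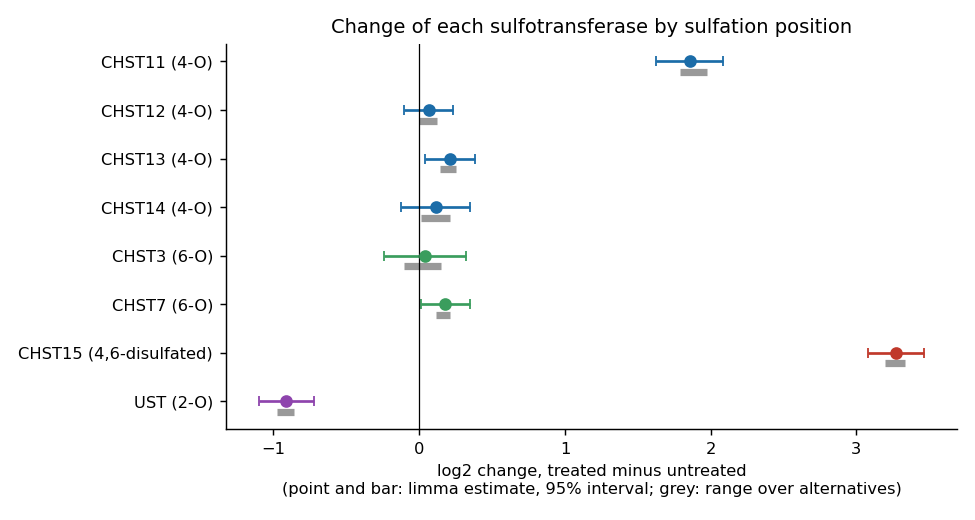
Log2 change, treated minus untreated, of each sulfotransferase (x axis), grouped and coloured by the position it sulfates, with limma's estimate as a point, its 95% interval as a bar and the range over the alternative settings in grey. CHST15 at 3.27 and CHST11 at 1.86 stand to the right, UST at -0.91 to the left, and the other 5 between 0.04 and 0.21.

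Sulfation of the 6-O of GalNAc is carried out by CHST3, which also acts on keratan sulfate, and CHST7. CHST3 was at 7.24, 7.09 and 7.59 in treated cells, against 7.46, 7.19 and 7.17 in untreated cells. The groups overlapped widely, and CHST3 had the largest spread of the 8 in treated cells (SD 0.26, n = 3). Its log2 change was 0.04 (95% interval -0.24 to 0.32, adjusted p = 0.879), and it lay at -0.10 without treated replicate 3. CHST7 was at 6.99, 7.14 and 6.96 in treated cells, against 6.77, 6.87 and 6.90 in untreated cells. These groups did not overlap, but the log2 change of 0.18 (95% interval 0.01 to 0.35) was not called (adjusted p = 0.101, and 0.0505 to 0.307 over the alternatives).

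UST adds a sulfate to the 2-O of the uronic acid, as found in chondroitin sulfate D and in disulfated dermatan units. It was at 6.49, 6.30 and 6.45 in treated cells, against 7.42, 7.36 and 7.19 in untreated cells. Every treated value lay below every untreated one. The means were 6.41 ± 0.10 in treated and 7.32 ± 0.12 in untreated cells (SD, n = 3 each), and the log2 change was -0.91 ± 0.08 (SE), with a 95% interval of -1.10 to -0.72 and an adjusted p of 1.22e-05. Without untreated replicate 3 it was -0.98. UST was called in all 13 alternatives, as was CHST15, and CHST11 in all 12 that kept its probe set.

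**Figure D4:**
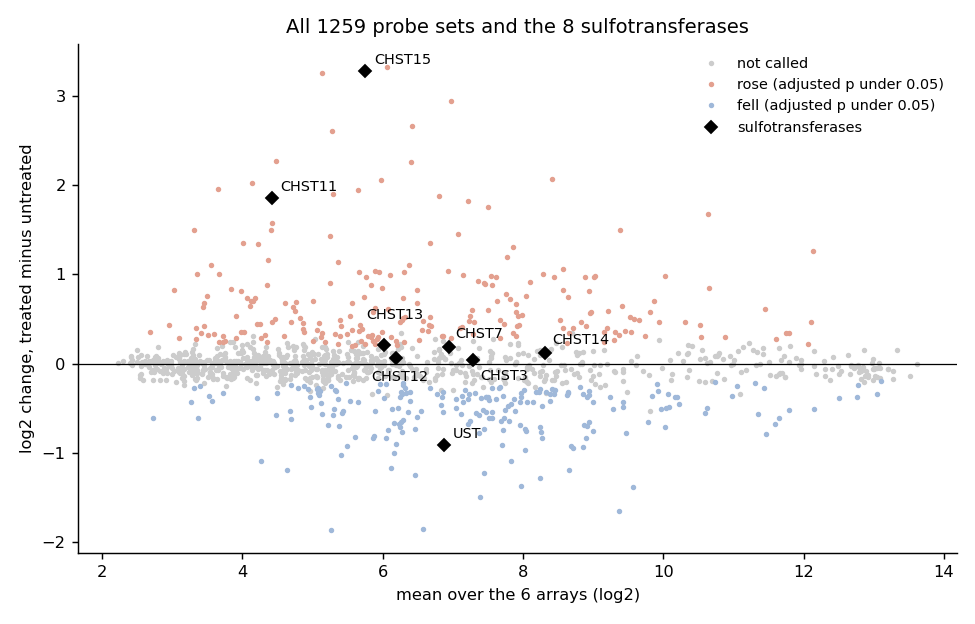
Mean log2 value over the 6 arrays (x axis) against log2 change, treated minus untreated (y axis), for all 1259 probe sets, coloured by call, with the 8 sulfotransferases as black diamonds. CHST15 (3.27) is among the few points above 3, and UST (-0.91) is in the lower part of the falls.

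Positions were then compared by the difference between 2 genes' log2 values within each array, over the 21 pairs of genes that act at different positions. A treated and an untreated value of such a difference show whether the 2 genes changed by unequal amounts, and say nothing of their relative abundance. For 15 of the 21 pairs the 3 treated differences did not overlap the 3 untreated ones. Of single probe sets 46.1% did not overlap, and the share over all pairs of the table was not computed. Each of the 15 pairs holds CHST15, CHST11 or UST, so the count restates their single changes. In those 15 an exact permutation test (two-sided, 3 against 3 arrays) gave p = 0.1, the smallest that this design allows, and 0.14 after Benjamini-Hochberg adjustment over the 21 pairs, so no pair could pass a threshold of 0.05. CHST15 changed by 4.18 ± 0.14 more than UST (SE, log2 scale), by 3.23 ± 0.22 more than CHST3 and by 1.42 ± 0.13 more than CHST11. The untreated values of CHST15 and CHST11 were low, below 4.90, and without detection calls background cannot be told from RNA in them. These are therefore differences between measured values and may differ from those in RNA. CHST11 changed by 1.82 ± 0.28 more than CHST3 and by 1.68 ± 0.10 more than CHST7, both of them pairs of 4-O against 6-O. All 10 pairs with CHST15 or CHST11 as the larger change were among the 15, and the remaining 5 set UST against the genes that were not called. The other 6 pairs, of CHST12, CHST13 and CHST14 with CHST3 and CHST7, also set 4-O against 6-O. In them the differences in change were 0.03 to 0.17 and the groups overlapped (exact permutation p = 0.3 to 0.8). Beside CHST12 and CHST14, CHST7 had the larger change.

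Within the groups the members did not vary alike. The deviations of CHST7 and CHST13 from their group means correlated at 0.963 over the 6 arrays, and those of CHST3 and CHST14 at 0.883. CHST3 and CHST14 were highest in treated replicate 3 among treated arrays and in untreated replicate 1 among untreated arrays. CHST7 and CHST13 were highest in treated replicate 2 and lowest in untreated replicate 1. UST went against CHST13 (-0.885), and CHST3 against CHST7 (-0.868). These correlations rest on 6 arrays that share 2 group means and 1 normalization, and are given as a description. The other genes with values most like those of CHST15 over the 6 arrays were SPOCK2 (Pearson r 0.998), ADGRE1 (0.997) and GDF15 (0.997). For CHST11 they were LAYN (0.999), BMP7 (0.997) and SPOCK2 (0.997). The gap between treated and untreated arrays makes most of these values, and 24 genes correlated with CHST15 above 0.99.

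The rest of the pathway was described by lists of genes, each gene by its probe set with the highest mean. Over all 927 named genes 19.7% rose and 17.6% fell. For the second epimerase, DSEL, the probe set lay at 2.95, 2.94 and 2.78 in treated cells, against 2.61, 2.82 and 2.70 in untreated cells. The groups overlapped, the values were among the lowest of the table, and the log2 change of 0.18 was not called (adjusted p = 0.116), although it passed with array weights (0.0342).

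Enzymes of the linkage region, which build the tetrasaccharide that joins the chain to its core protein, had 0 rises and 4 falls among 5 measured (of 7 listed), with a median log2 change of -0.27. XYLT1, a xylosyltransferase, had a log2 change of -0.22 and was not called (adjusted p = 0.119). B3GALT6, the galactosyltransferase that adds the second galactose, was at 6.98 in treated and 7.76 in untreated cells (log2 change -0.77 ± 0.09 SE, adjusted p = 4.88e-05). B4GALT7, which adds the first galactose, fell by 0.37 ± 0.08 (adjusted p = 0.0041). XYLT2, the other xylosyltransferase, fell by 0.26 ± 0.07 (adjusted p = 0.0155), and B3GAT3, which adds the glucuronic acid, by 0.27 ± 0.09 (adjusted p = 0.0309). Leaving out treated replicate 1 or untreated replicate 2 left 2 falls, since XYLT2 and B3GAT3 were then not called. B3GAT3 was not called in 6 of 13 alternatives, among them those without treated replicate 2 or untreated replicate 1, the replicate block and the ordinary test, while B3GALT6 and B4GALT7 were called in all 13. The same region starts heparan sulfate chains.

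Of the 6 enzymes that polymerise the chondroitin chain, 2 rose and 0 fell, with a median log2 change of 0.07. CHSY1, a chondroitin synthase, was at 8.23 in treated and 7.57 in untreated cells (0.66 ± 0.08, adjusted p = 0.000124). CSGALNACT2, which adds the first GalNAc, was at 6.54 in treated and 6.04 in untreated cells (0.50 ± 0.09, adjusted p = 0.000919). The other 4, CHPF, CHPF2, CSGALNACT1 and CHSY3, had log2 changes of -0.18 to 0.10.

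All these sulfotransferases draw on the donor PAPS, which is made in the cytosol and carried into the Golgi. Of 4 genes measured (of 6 listed) 0 rose and 2 fell, with a median log2 change of -0.30. Both PAPS transporters were lower, SLC35B2 at 9.18 in treated and 9.66 in untreated cells (-0.48 ± 0.08, adjusted p = 0.00104) and SLC35B3 at 7.31 in treated and 7.69 in untreated cells (-0.38 ± 0.10, adjusted p = 0.0117). SLC35B3 was not called without untreated replicate 2, and there was then 1 fall. Without untreated replicate 3 there were 3, as the PAPS synthase PAPSS2 was then called. In the fit of all arrays PAPSS2 had a log2 change of -0.22 and PAPSS1 of 0.03, and neither was called.

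Among the core proteins that carry chondroitin or dermatan sulfate 7 of 15 measured (of 17 listed) rose and 0 fell, with a median log2 change of 0.15. VCAN, the matrix proteoglycan versican, was at 6.75 in treated and 3.50 in untreated cells (3.25 ± 0.18, adjusted p = 2.94e-07). SPOCK2, a testican, was at 7.74 in treated and 5.08 in untreated cells (2.66 ± 0.10, adjusted p = 3.61e-08). SRGN, serglycin, and CD44, a hyaluronan receptor that can carry the chain, rose by 1.00 ± 0.07 and 0.63 ± 0.08 (adjusted p = 2.11e-06 and 0.000124). The other 3 rises, named after their values were seen, were SPOCK1, BGN and SMC3, the last of these better known as a cohesin subunit. Without the dimmest probe sets 4 rises were left, as SRGN, CD44 and SPOCK1 were left out. DCN, decorin, a dermatan sulfate carrier, had a log2 change of -0.02.

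Enzymes of breakdown went both ways, with 4 rises and 3 falls among 12 measured (of 15 listed) and a median log2 change of -0.08. HYAL1, a hyaluronidase that also cuts chondroitin, was at 8.45 in treated and 5.51 in untreated cells (2.94 ± 0.09, adjusted p = 8.26e-09). HYAL4, known as a chondroitin hydrolase, was at 5.96 in treated and 4.54 in untreated cells (1.42 ± 0.08, adjusted p = 4.11e-07). IDS, the sulfatase that removes the 2-O-sulfate of iduronic acid, rose by 0.55 ± 0.10 (adjusted p = 0.00158). IDUA, which then removes the iduronic acid, fell by 0.55 ± 0.09 (adjusted p = 0.000783). For the sulfatases that undo the GalNAc sulfation, chosen after their values were seen, ARSB, which removes the 4-O-sulfate, rose by 0.45 ± 0.12 (adjusted p = 0.0101) but was not called in an ordinary equal-variance test (0.115). GALNS, which removes the 6-O-sulfate, had a log2 change of -0.15 (adjusted p = 0.302).

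**Figure D5:**
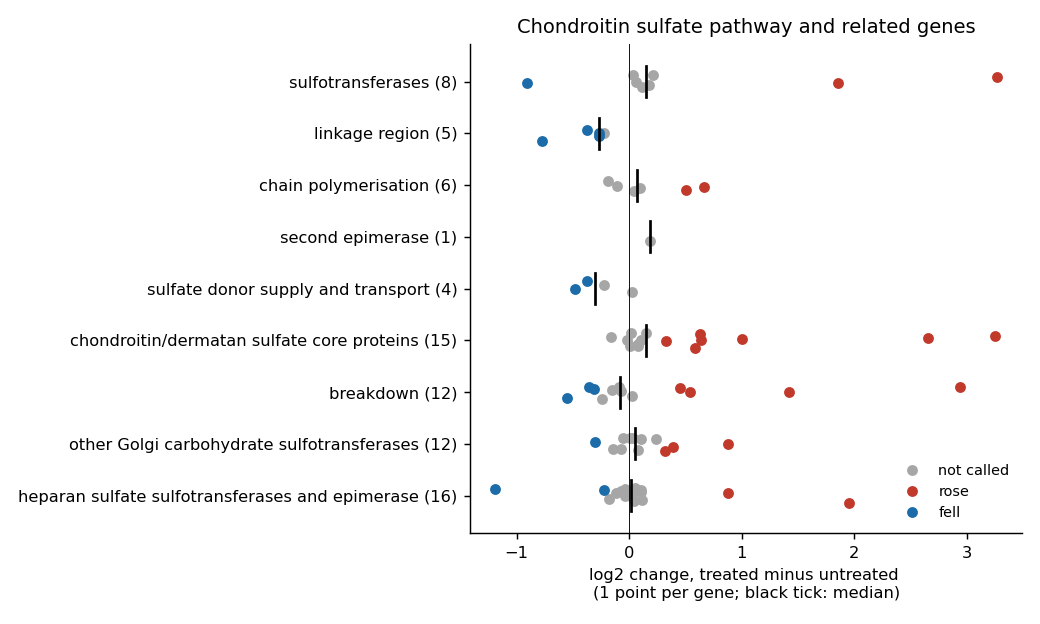
Log2 change, treated minus untreated, of each gene (1 point) in the sulfotransferases and in 8 lists of related genes, with the number of genes in brackets, red for rises, blue for falls, grey for genes not called and a black tick at the median. The linkage region lies wholly below 0, with 4 of 5 called, and the core proteins have 7 rises and 0 falls.

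Related sulfotransferases that act on other glycans were set beside these 8. Of 12 other Golgi carbohydrate sulfotransferases 3 rose and 1 fell, with a median log2 change of 0.06. CHST10, which makes the HNK-1 epitope, rose by 0.88 ± 0.11 (adjusted p = 7.46e-05). CHST6, a keratan sulfate sulfotransferase, rose by 0.39 ± 0.08 (adjusted p = 0.00268) and CHST2, which sulfates N-acetylglucosamine, by 0.32 ± 0.08 (adjusted p = 0.0092). CHST6 and CHST2 were at 4.67 and 3.35 in untreated cells, both below 4.90. GAL3ST4, a galactose sulfotransferase of O-glycans, fell by 0.30 ± 0.11 with an adjusted p of 0.0484, and it was not called in 7 of 13 alternatives, among them those without treated replicate 1, 2 or 3 or untreated replicate 2.

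Of 16 genes for the sulfotransferases and the epimerase of heparan sulfate 2 rose and 2 fell, with a median log2 change of 0.02. HS6ST2, a 6-O-sulfotransferase, was at 4.63 in treated and 2.68 in untreated cells (1.96 ± 0.11, adjusted p = 3.96e-07). Both values were low, below 4.90, and without detection calls background cannot be told from RNA there. HS3ST3A1, a 3-O-sulfotransferase, rose by 0.88 ± 0.11 (adjusted p = 0.000102) from a low level, 3.91 in untreated cells. HS3ST1, another 3-O-sulfotransferase, was at 4.03 in treated and 5.23 in untreated cells (-1.19 ± 0.08, adjusted p = 1.56e-06). Its treated value was below 4.90, where background cannot be told from RNA either. HS2ST1, which adds the 2-O-sulfate of heparan sulfate and in that resembles UST, fell by 0.22 ± 0.08 (adjusted p = 0.0468) and was not called in 9 of 13 alternatives, including those without treated replicate 2 or 3 and without untreated replicate 1, 2 or 3. UST fell by 0.91 in the same arrays, and the difference between these 2 changes was not tested.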

How the data were processed

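Biotin-labelled cRNA from Trizol-extracted total RNA was hybridised to Affymetrix arrays, as the labels' protocols describe. The deposited table holds log2 values, 1 column per array; RMA is named per the submitters' processing notes, without settings. The log2 scale was taken from the range of the values, 2.13 to 13.67. RMA compresses differences between dim probe sets. Unused columns numbered 0. Probe sets were named by matching their RefSeq transcripts, without versions, to a RefSeq gene table (GRCh38.p14). Of them 1043 matched, 26 had an identifier without a match and 190 had none. As for CHST11, the probe set names of B4GALT7, VCAN, BGN, IDUA, DSEL, PAPSS1 and CSGALNACT1 end in s_at. Those of IDS and CHSY3 end in x_at. All of these too may bind more than 1 transcript.

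Arrays were grouped by treatment entry, 3 treated and 3 untreated, a number that limits the precision. Treatment was the single term of a model fitted to all 1259 probe sets with limma 3.58.1 in R 4.3.3 (lmFit, eBayes, two-sided, Benjamini-Hochberg over all probe sets), calling an adjusted p under 0.05, with no filter. The steps were tested on simulated arrays with independent noise for each probe set, which checks the code and not the results. The members and lists were chosen with earlier results of these data known. Named were all members, up to 4 called genes per list by smallest p, and the 3 genes most like each member changed at least 2-fold. Others are named where a count turns on them. Alternatives were quantile normalization, median centring, leaving out the dimmest probe sets (839 stayed), an intensity trend, array weights, a block on replicate number, an ordinary equal-variance model, each array left out, other thresholds, and the lowest-mean probe set per gene.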

Additional observations from a re-analysis of the deposited data

How the results depend on the processing

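CHST15 and UST kept their direction and call in 13 of 13 alternatives and CHST11 in 12 of 12. CHST13 passed the threshold with array weights (log2 change 0.22). CHST3, CHST7, CHST12 and CHST14 were called in none of the 13 alternatives run. Leaving out each array in turn gave log2 changes of 3.20 to 3.33 for CHST15, 1.79 to 1.97 for CHST11 and -0.98 to -0.86 for UST. It gave 376 to 440 called probe sets, against 438 with all arrays. At 2-fold or more 58 were called, 42 up and 16 down.

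Among the lists, leaving out each array gave 2 to 5 falls for the linkage region, 1 to 3 for sulfate donor supply, 0 to 1 for the other Golgi sulfotransferases and 1 to 2 for heparan sulfate. Quantile normalization gave 1 fall for donor supply, 1 for core proteins and 3 for the other Golgi sulfotransferases, and median centring gave 1 and 2 for the last 2 of these. The linkage region had 5 falls with quantile normalization or array weights, as XYLT1 was then called. Of the other Golgi sulfotransferases 4 rose with the replicate block or without untreated replicate 3, as CHST1 was then called. Array weights gave 1 fall in chain polymerisation, 1 rise for DSEL and 1 fall for heparan sulfate. Without the dimmest probe sets there were 4 rises of core proteins, 1 rise of the other Golgi sulfotransferases, and 0 rises and 1 fall for heparan sulfate. The intensity trend and the ordinary test each gave 0 falls of the other Golgi sulfotransferases and 1 for heparan sulfate. The ordinary test gave 1 fall for donor supply and 3 for the linkage region. It left 6 rises of core proteins, without BGN (adjusted p = 0.0704). Of the other Golgi sulfotransferases it left 2 rises, without CHST2 (0.0517), and of breakdown 3, without ARSB. Breakdown had 4 falls with median centring or without treated replicate 2. The cause of these shifts was not tested.

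With the replicate number as a block 394 probe sets were called (209 up, 185 down), there were 3 falls for the linkage region, 0 falls of the other Golgi sulfotransferases and 1 for heparan sulfate, and no sulfotransferase of the 8 changed its call. Same-numbered arrays had deviations that correlated at -0.274, 0.037 and -0.111, and differently numbered ones at up to 0.422. Deviations from means of 3 arrays are tied to each other, so these values cannot decide whether the numbers pair the arrays. No detection calls were used, so the low untreated values of CHST15 and CHST11 limit how their changes can be read. The same holds for HS6ST2, HS3ST3A1, VCAN, SRGN, CD44, SPOCK1, CHST2, CHST6, HYAL4 and ARSB, with untreated means below 4.90. It holds too for HS3ST1, which fell to a treated mean of 4.03.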
